A study of Mus musculus with 7 samples.

Results

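The genes described here are 43 genes of autophagy and of the lysosome, taken by symbol from a list of the autophagy machinery, its cargo receptors and lysosomal proteins, among 20927 genes in the count table. All 43 were found, each as a single entry that shares its counts with no other, and all 43 were among the 13894 genes with enough counts to test. RNA from the left ventricle of 3 WT mice (replicates 1, 3 and 4) and 4 mice homozygous for the titin A178D variant (replicates 1 to 4) was sequenced, with 1 library per heart. All mice are labelled C57BL/6J, no treatment is named, and the age and sex of these mice are not given in the sources used here. The variant is a single amino acid change that was edited into the mouse *Ttn* gene of C57BL/6N embryonic stem cells, and the line was then crossed to C57BL/6J. The mice carry the change on both alleles in every tissue, whereas the human variant acts in the heterozygous state. After identical entries were reduced to 1, the WT libraries held between 41102868 and 54245530 counts and the A178D libraries between 33080675 and 52345529.

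Autophagy encloses proteins and organelles in a double membrane and delivers them to the lysosome. The ULK1 kinase complex starts the process, a lipid kinase complex marks the membrane, and a pair of ubiquitin-like conjugation reactions attaches LC3 and its GABARAP relatives to the lipid phosphatidylethanolamine. Receptors such as p62 link ubiquitinated cargo to LC3, and after fusion with the lysosome the cathepsins and other hydrolases digest what is inside. Cardiomyocytes are long-lived and rarely divide, so that they rely on this route for the turnover of mitochondria and of large proteins. Inherited loss of the lysosomal proteins LAMP2 or acid alpha-glucosidase causes Danon and Pompe disease, in both of which the heart is affected. Much of the pathway is controlled on the proteins themselves, by phosphorylation, cleavage and lipidation, which a count of transcripts does not measure.

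No member of the list was called higher or lower in A178D hearts. With edgeR's quasi-likelihood test and a Benjamini-Hochberg adjusted p under 0.05 over all tested genes, 0 of 43 members were called in either direction, where 1.04% of all tested genes were called higher (145) and 1.31% lower (182). DESeq2's Wald test and limma-voom also called 0 of 43. At an unadjusted p under 0.05, edgeR gave 2 members, or 4.65%, beside 16.7% of all tested genes, DESeq2 gave 4 and limma-voom gave 3. This count ranged from 0 (without A178D replicate 1) to 5 (without A178D replicate 4) with 1 heart left out, and was 7 of 43 with offsets for transcript length and GC content. The share of all tested genes is given here for the main edgeR fit only. The counts from the other fits therefore cannot be read as above or below a background. The median log2 fold change, A178D over WT, was -0.0014 over the 43 members and 0.0023 over all tested genes, and 21 members lay above 0 and 22 below. The smallest value was -0.15, for *Pink1*, and the largest 0.22, for *Atg7*. In size and without regard to sign, the median was 0.077 for the members and 0.12 for all tested genes.

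Intervals bound these differences. For all 43 members the 95% interval, not adjusted for the number of genes, of the log2 fold change lay between -0.5 and 0.5, which are folds of 0.707 and 1.41. The outermost bounds were -0.31, for *Lamp2*, and 0.43, for *Atg7*, or folds of 0.808 and 1.34. The lowest count of any member in any library was 574. In whole ventricle, fewer cells of a type and less RNA per cell cannot be told apart, and a change confined to a small cell population would be diluted.

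**Figure D1:**
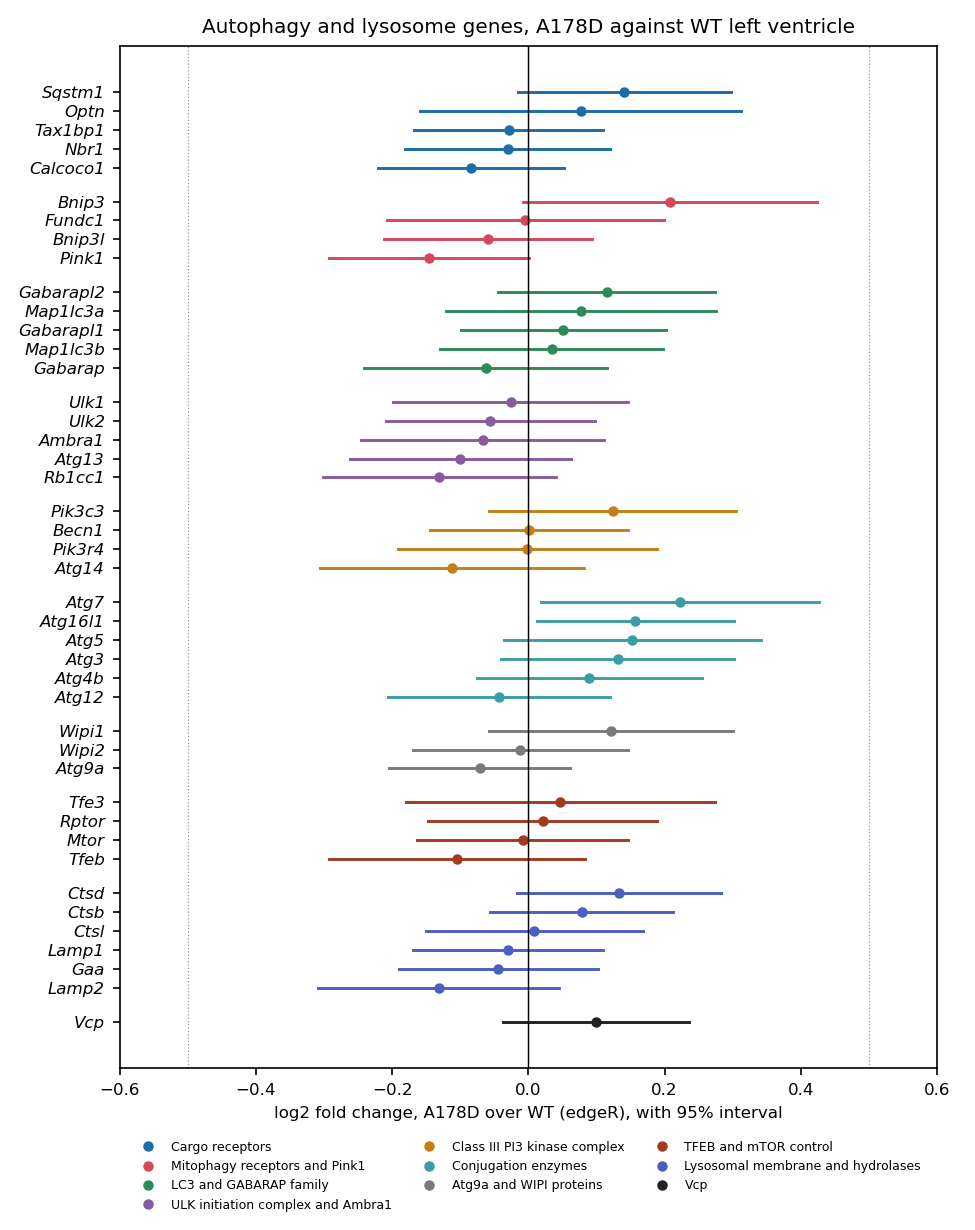
Log2 fold change of each of the 43 genes, A178D over WT (x axis), with its 95% interval from edgeR (line), in role groups (colours). Dotted lines mark -0.5 and 0.5. All 43 intervals lie between them, and 41 include 0.

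The targeted gene comes first. *Ttn*, which encodes titin (chr2:76703980-76982547, GRCm38), had levels of 7245, 6247 and 6486 CPM (TMM-normalized counts relative to library size) in WT replicates 1, 3 and 4, and of 5360.5, 6173, 6489.5 and 4087 in A178D replicates 1 to 4. A178D replicate 4 was the lowest of all hearts, and the genotypes overlapped. With a standard error of 0.12, the log2 fold change was -0.27, with an edgeR adjusted p of 0.287. With 1 heart left out it ranged from -0.35 (without A178D replicate 3) to -0.15 (without A178D replicate 4), and it was -0.35 with the replicate block, -0.13 with offsets for transcript length and GC content, and -0.083 with WT replicate 1 and A178D replicate 4 both left out. Since the edit exchanges bases and removes no exon, the gene's counts do not check the genotype labels. *Optn*, *Map1lc3a*, *Atg13* and *Ambra1* lie on chromosome 2 with *Ttn*, the nearest of them, *Atg13*, 14.7 megabases away. Their log2 fold changes lay between -0.10 and 0.077.

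The starting complex is represented by the kinases *Ulk1* and *Ulk2*, by their partners *Atg13* and *Rb1cc1* (which encodes FIP200), and by *Ambra1*, a scaffold that ties the complex to the lipid kinase. All 5 had log2 fold changes below 0, from -0.13 for *Rb1cc1* to -0.026 for *Ulk1*, with a group median of -0.067, and none was called. The 5 genes summed to 457, 473 and 469 CPM in WT hearts and to 453, 443.5, 466 and 418 CPM in A178D hearts. A178D replicate 3 lay among the WT hearts and the other A178D hearts below them, replicate 4 by the most. *Ulk1* had the highest level of the group per kilobase of exon, 22.1 CPM per kilobase, and *Ambra1* the lowest, 6.30. With offsets for transcript length and GC content, 2 of the 5 lay above 0 and the group median was -0.014, with the replicate block as well 3 did and it was 0.0076, and without WT replicate 3 *Ulk1* lay above 0. When 1 heart was left out, the lowest group median was -0.10 (WT replicate 1 absent) and the highest -0.030 (A178D replicate 4 absent), and *Rb1cc1* ranged from -0.18 to -0.082.

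The class III lipid kinase complex makes phosphatidylinositol 3-phosphate on the growing membrane. Its catalytic subunit *Pik3c3*, its regulatory subunit *Pik3r4*, and *Becn1* and *Atg14*, which direct it to autophagy, kept a nearly constant sum, 129 to 134 CPM in WT and 129 to 134.5 CPM in A178D hearts. *Pik3c3* had the highest log2 fold change, 0.12 (0.076 to 0.17 over all alternatives), and *Atg14* the lowest, -0.11 (-0.17 to -0.047, the latter without WT replicate 4). *Becn1* varied between 55.8 and 60.7 CPM over all 7 hearts, and its values in A178D hearts lay inside the WT range. *Atg14* was the second lowest of the 43 members per kilobase of the longest transcript, at 4.84 CPM per kilobase.

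Lipid is carried to the membrane around vesicles with the scramblase *Atg9a*, and *Wipi1* and *Wipi2* encode proteins that read the lipid mark. *Atg9a* had 145, 144.5 and 142 CPM in WT hearts and 134, 139.7, 134 and 139.6 CPM in A178D hearts. Every A178D heart was below every WT heart, with a difference of -0.072 (log2) that edgeR did not call (adjusted p = 0.599). It was the only 1 of the 43 members with the genotypes apart in this direction, beside 8.52% of all tested genes. *Wipi1* ranged from 113 to 144 CPM in WT and from 136 to 147.5 CPM in A178D hearts, and *Wipi2* from 54.8 to 55.6 and from 49.99 to 57.8.

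The conjugation enzymes were the role group with the highest median. *Atg7* encodes the activating enzyme, *Atg3* the conjugating enzyme of LC3, *Atg5*, *Atg12* and *Atg16l1* the ligase complex, and *Atg4b* the protease that prepares and releases LC3. Together they summed to 194, 193 and 196 CPM in WT replicates 1, 3 and 4 and to 210.2, 208, 206 and 213 CPM in A178D replicates 1 to 4. The sums of the genotypes did not overlap. Of the 6 genes, 5 had log2 fold changes above 0, with a median of 0.14, and *Atg12* was at -0.043. None passed the adjusted threshold. No test was made of the group. Over all alternatives of the processing, 5 or 6 of the 6 lay above 0, and *Atg12* was the one that changed sides.

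Both members with an unadjusted p under 0.05 belong to this group. *Atg7* (chr6:114643097-114860614) had 19.9, 23.9 and 19.5 CPM in WT replicates 1, 3 and 4 and 24.5, 24.4, 23.2 and 26.6 CPM in A178D replicates 1 to 4. WT replicate 3 lay above A178D replicate 3, so that the genotypes overlapped by a single heart. The log2 fold change was 0.22 (standard error 0.095) with an edgeR adjusted p of 0.258. With 1 heart left out it ranged from 0.17 (adjusted p = 0.508, without WT replicate 4) to 0.32 (adjusted p = 0.206, without WT replicate 3), and with WT replicate 1 and A178D replicate 4 both left out it was 0.14.

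*Atg16l1* (chr1:87755870-87792428), whose product sets where LC3 is attached, had 47.8, 49.3 and 51.4 CPM in WT replicates and 55.1, 54.9, 54.9 and 55.9 CPM in A178D replicates. The 4 A178D hearts lay within about 1 CPM of each other, all above the WT hearts. The log2 fold change was 0.16 (standard error 0.067) with an edgeR adjusted p of 0.26. In 3 of the 6 conjugation genes, *Atg3*, *Atg4b* and *Atg16l1*, every A178D heart was above every WT heart. Over the 43 members this held for 5, which were these 3, *Ctsb* and *Vcp*, beside 7.61% of all tested genes. *Atg3*, *Atg4b*, *Atg9a*, *Ctsb* and *Vcp* are named here for this separation, after their values were seen. *Atg3* ranged from 26.6 to 27.2 CPM in WT and from 27.4 to 31.3 CPM in A178D hearts. For *Atg4b* the genotypes were apart by a narrow gap, with 33.6 CPM in the highest WT heart and 33.7 in the lowest A178D heart.

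**Figure D2:**
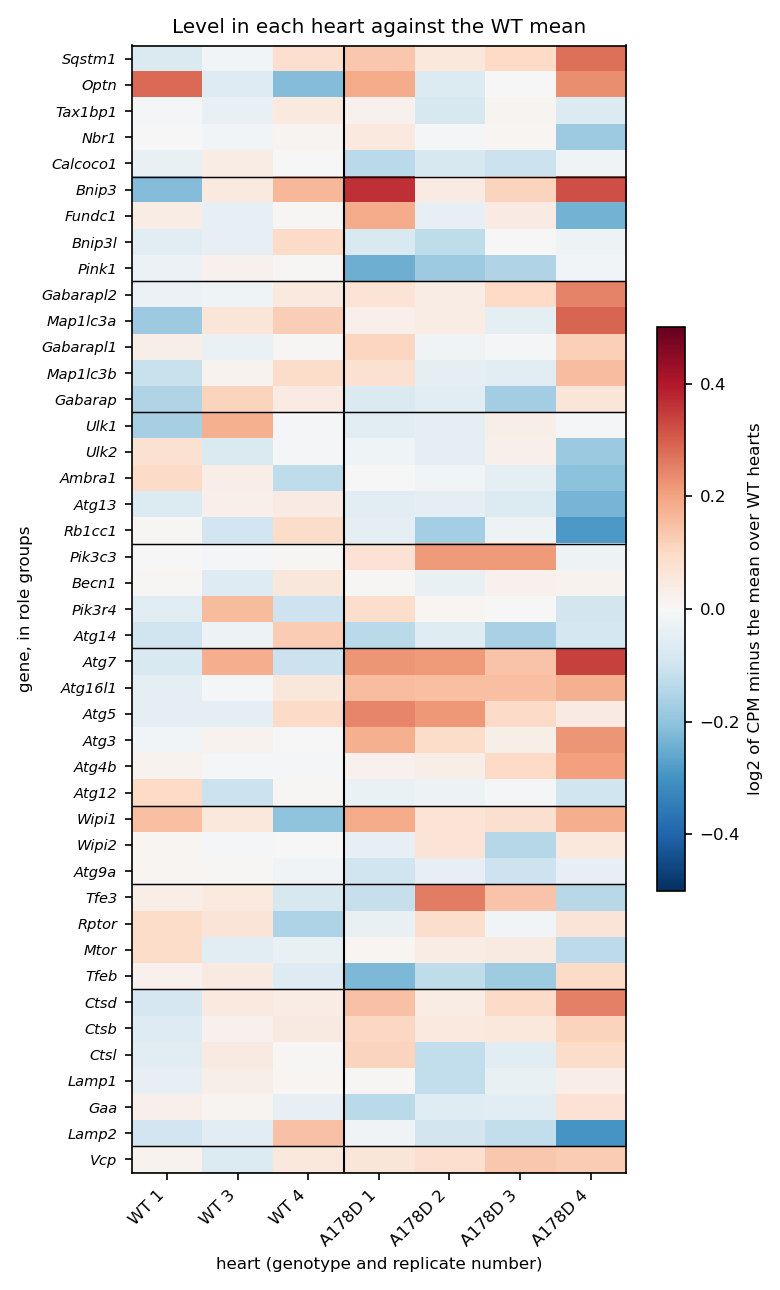
Level of each of the 43 genes (y axis, in role groups set apart by lines) in each heart (x axis), as log2 CPM minus the mean over the 3 WT hearts (colour). Values run from -0.30, for *Lamp2* in A178D replicate 4, to 0.36, for *Bnip3* in A178D replicate 1, and the conjugation genes other than *Atg12* are above the WT mean in all A178D hearts.

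LC3 and the GABARAP proteins are the small ubiquitin-like proteins that become attached to the membrane. *Map1lc3a* (chr2:155276297-155278073) had 438, 517.5 and 541 CPM in WT replicates 1, 3 and 4 and 506, 509.6, 482 and 607 CPM in A178D replicates 1 to 4. WT replicate 1 was the lowest and A178D replicate 4 the highest of all hearts, and between them the other A178D hearts lay below WT replicates 3 and 4. The log2 fold change was 0.077 (standard error 0.092, edgeR adjusted p = 0.726), and it was -0.028 with offsets for transcript length and GC content and -0.085 with WT replicate 1 and A178D replicate 4 both left out.

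*Map1lc3b* (chr8:121590361-121598760), the form most often followed as a marker of autophagosomes, had 236, 258 and 271.5 CPM in WT and 269, 247, 246 and 284 CPM in A178D replicates. The values of the genotypes were interleaved. Its log2 fold change was 0.034 (standard error 0.076, edgeR adjusted p = 0.869), with a 95% interval from -0.13 to 0.20. *Gabarap*, at -0.063, and *Gabarapl2*, at 0.11, were the ends of the family, and 4 of its 5 members lay above 0. Over all alternatives *Gabarap* ranged from -0.18 to -0.0056 and *Gabarapl2* from 0.050 to 0.14. The ranges were -0.13 to -0.0056 and 0.069 to 0.14 with 1 heart left out, and with the offsets the values were -0.15 and 0.050. With the offsets only 2 of the 5 did, and the family's median moved from 0.051 to -0.018. Without WT replicate 1 it was also 2 of the 5, with a median of -0.0062, the lowest with 1 heart left out, and the highest was 0.081.

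Per kilobase of exon, *Map1lc3a* made up most of the family's transcripts. Its share in the 3 WT hearts was 78.3 ± 1.18% (mean ± SD), that in the 4 A178D hearts 78.9 ± 0.882%, and when the length of the longest transcript was used instead it was 72.7 and 73.4%. *Map1lc3b* came next with 6.31 ± 0.188% in WT and 6.17 ± 0.286% in A178D hearts. *Gabarap* had 5.74 ± 0.252 and 5.25 ± 0.187%, *Gabarapl1* 5.41 ± 0.621 and 5.34 ± 0.354%, and *Gabarapl2* 4.25 ± 0.334 and 4.38 ± 0.211%. The order of the first 2 genes was the same in all hearts, and *Gabarapl2* was the last in all of them, while *Gabarap* and *Gabarapl1* changed places. By the longest transcript *Map1lc3b* was at 10.03 and 9.82%, *Gabarapl1* at 5.24 and 5.18% and *Gabarapl2* at 5.15 and 5.33% (means of WT and A178D hearts), so that shares and the order at the lower end depend on the length used. How fragments that match several genes were counted is not given in the sources used here, so that the split among these related genes is uncertain.

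Among the cargo receptors, *Sqstm1* (chr11:50199366-50210827) encodes p62, which binds ubiquitin chains and LC3 and is itself broken down by autophagy. Its levels were 502, 523 and 560.1 CPM in WT replicates 1, 3 and 4 and 579.9, 547, 565 and 639 CPM in A178D replicates 1 to 4. The A178D hearts were high except replicate 2, which lay below WT replicate 4, so that the genotypes overlapped. The log2 fold change was 0.14 (standard error 0.073), with a 95% interval from -0.015 to 0.30 and an edgeR adjusted p of 0.351. Over all alternatives it ranged from 0.059 to 0.19 and was not called.

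The other receptors recognise ubiquitinated or selective cargo in a similar way. *Nbr1* kept to 209 to 213 CPM in WT and ranged from 186 to 219 CPM in A178D hearts. *Tax1bp1* ranged from 147 to 156 CPM in WT and from 143 to 153 CPM in A178D hearts, and *Calcoco1*, with the lowest log2 fold change of the group at -0.084, from 225 to 237 and from 210.2 to 227. *Optn* was the member that varied most between hearts of the same genotype, with an SD of 0.20 on the log2 scale. It had 150.3, 118 and 106 CPM in WT and 140.3, 118, 124 and 145 CPM in A178D hearts, so that WT replicate 1 exceeded every A178D heart.

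Mitophagy removes damaged mitochondria. *Pink1* encodes a kinase that accumulates on them, and *Bnip3*, *Bnip3l* and *Fundc1* encode receptors in their outer membrane that bind LC3. *Pink1* (chr4:138313409-138326307) had 1042, 1080.2 and 1067 CPM in WT and 897, 936, 958 and 1053 CPM in A178D replicates 1 to 4. In 3 of 4 A178D hearts it was below all WT hearts, and A178D replicate 4 lay among them. The log2 fold change was -0.15 (standard error 0.068, edgeR adjusted p = 0.302). *Pink1* was the only member called under any alternative, with a log2 fold change of -0.19 and an adjusted p of 0.0377 when offsets for transcript length and GC content were used. It was also called, at -0.21 with an adjusted p of 0.0496, when WT replicate 1 and A178D replicate 4 were both left out. Over all alternatives its adjusted p ranged from 0.0377 to 0.548. It is given in full because of these calls, after its values were seen.

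*Bnip3* had the second highest log2 fold change of the 43, 0.21, and a wide spread, with 143, 172 and 186 CPM in WT and 213.5, 171, 179 and 207 CPM in A178D replicates. A178D replicates 1 and 4 were above all WT hearts and replicates 2 and 3 among them. With 1 heart left out the log2 fold change ranged from 0.11 (without WT replicate 1) to 0.29 (without WT replicate 4), and without both WT replicate 1 and A178D replicate 4 it was 0.071. *Bnip3l* ranged from 64.5 to 71.5 CPM in WT and from 61.2 to 66.8 CPM in A178D hearts, and *Fundc1* from 33.5 to 35.3 and from 29.2 to 39.2. By level per kilobase of exon, *Pink1* was at 376 CPM per kilobase, against 80.2 for *Bnip3*, 16.96 for *Bnip3l* and 14.6 for *Fundc1*.

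The lysosome itself is represented by the membrane proteins *Lamp1* and *Lamp2*, by the cathepsins *Ctsb*, *Ctsd* and *Ctsl*, and by *Gaa*, which encodes acid alpha-glucosidase. Their median log2 fold change was -0.010, with 3 genes above 0 and 3 below, and with 1 heart left out it ranged from -0.035 to 0.029. *Ctsd*, an aspartic protease, ranged from 1448 to 1587 CPM in WT and from 1575 to 1831 CPM in A178D hearts, a log2 fold change of 0.13 that ranged from 0.051 to 0.17 over all alternatives. At the other end, *Lamp2* ranged from 206.5 to 244 CPM in WT and from 179.7 to 218 CPM in A178D hearts, at -0.13, with its lowest value in A178D replicate 4. It ranged from -0.18 (without WT replicate 1) to -0.054 (without WT replicate 4) over all alternatives. *Ctsb* had 625, 664 and 675 CPM in WT and 704, 676, 679 and 707 CPM in A178D hearts, so that the genotypes were apart by about 1 CPM. *Lamp1* ranged from 528 to 554 and from 498 to 556 CPM, *Ctsl* from 169 to 181 and from 161 to 189 CPM, and *Gaa* from 248.8 to 260.1 and from 233 to 268 CPM in WT and A178D hearts. In none of these 3 did the mean of the genotypes differ by more than the spread within them.

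*Tfeb* and *Tfe3* encode transcription factors that switch on lysosomal genes when the kinase mTOR, encoded by *Mtor* and guided by *Rptor*, no longer holds them in the cytoplasm. *Tfeb* had 39.2, 39.9 and 37.0 CPM in WT and 33.1, 35.4, 34.2 and 41.3 CPM in A178D hearts. A178D replicates 1 to 3 lay below all WT hearts and replicate 4 above them, and the log2 fold change was -0.11 with an edgeR adjusted p of 0.583. It ranged from -0.18 (without A178D replicate 4) to -0.067 (without A178D replicate 1) over all alternatives. *Tfe3*, at 0.047, ranged from 21.7 to 23.7 CPM in WT and from 20.8 to 27.4 CPM in A178D hearts. *Mtor* ranged from 95.9 to 106 and from 90.9 to 103 CPM, and *Rptor* from 53.8 to 63.9 and from 58.4 to 63.7 CPM. *Vcp*, whose product extracts ubiquitinated proteins for the proteasome and serves in autophagosome maturation, had 393, 370 and 402 CPM in WT and 404, 411, 425 and 423 CPM in A178D hearts. Its log2 fold change was 0.099 with an edgeR adjusted p of 0.47, and ranged from 0.066 to 0.13 over all alternatives.

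Levels per kilobase of exon differed widely among the members. *Ctsd* led with 690.1 CPM per kilobase, followed by *Map1lc3a* with 436, *Pink1* with 376, *Lamp1* with 201 and *Sqstm1* with 167. These 5 kept this order when the longest transcript set the length, and the lowest genes did not. The lowest were *Tfe3* with 2.52, *Pik3r4* with 2.82 and *Atg7* with 3.32 CPM per kilobase, whereas by the longest transcript they were *Tfe3* with 3.69, *Atg14* with 4.84 and *Pik3r4* with 5.53. The leading 5 are a lysosomal protease, an LC3 gene, a mitophagy kinase, a lysosomal membrane protein and a cargo receptor, while the last 3 by exon length encode a transcription factor, a lipid kinase subunit and a conjugation enzyme. Within a genotype the members were steady, with SDs on the log2 scale from 0.028, for *Atg9a*, to 0.20, for *Optn*, and a median of 0.083. In 19 of 43 members the log2 fold change exceeded this SD.

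Single hearts left a trace across the members. A178D replicate 4 had the highest value of the 7 hearts for 14 members and the lowest for 10, and WT replicate 1 the lowest for 11. In A178D replicate 4 the members' deviations from their mean over all hearts had a Spearman correlation of -0.52 with transcript length, and in WT replicate 1 of 0.39. These are correlations across 43 genes of one library, given as a description, since genes are not independent replicates. Over all tested genes the same correlations were -0.47 and 0.36. The members' transcripts run from 1112 bases, for *Map1lc3a*, to 8564, for *Mtor*. Averaged over the 43 members, the deviation was between -0.027 and -0.00071 in WT hearts and between -0.0085 and 0.023 in A178D hearts.

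Other genes of the pathway, 146 in 8 lists, were all tested, and 4 were called, or 2.74%, beside 2.35% of all tested genes in either direction. Of 22 genes for mTORC1, the TSC complex and nutrient sensing at the lysosome, 2 were called lower, *Flcn* and *Fnip2*, and the list's median log2 fold change was 0.0023. Among 29 genes listed as lysosomal glycosidases, sulfatases and lipases, 1 was called higher, *Fuca2* (median 0.0091). Among 20 listed as other lysosomal membrane and luminal proteins, 1 was called lower, *Sort1* (median -0.047). None was called among 16 other genes of the autophagy machinery (median -0.00065), 16 genes listed with other cargo and organelle receptors (-0.011), 13 genes of fusion with the lysosome (-0.014), 18 genes of the vacuolar ATPase (0.029) and 12 other cathepsins and lysosomal proteases (0.011). These medians are small and unsteady. With 1 heart left out, those of 6 of the 8 lists changed sign, that of the cathepsins ran from -0.029 (without WT replicate 1) to 0.085 (without WT replicate 3), and that of the vacuolar ATPase from 0.0033 (without WT replicate 1) to 0.061 (without WT replicate 4). Over all alternatives the medians of 7 of the 8 lists changed sign. That of the vacuolar ATPase was -0.039 with WT replicate 1 and A178D replicate 4 both left out. In the 5 lists without a call edgeR gave an unadjusted p under 0.05 for 2, 4, 0, 1 and 3 genes. Limma-voom called 0 in each of these 5 lists, and DESeq2 called 1 gene, *Ctss*, among the cathepsins and 0 in the others. Of the genes listed with the receptors, *Tecpr1* was called higher without WT replicate 1 (edgeR adjusted p = 0.0196) and with the replicate block and offsets (0.0352). With WT replicate 1 and A178D replicate 4 both left out, *Tecpr1* was called higher and *Retreg1* lower (0.00702 and 0.0237). The pair is named for these calls, after their values were seen. The median over all 146 was 0.0037, with 76 above 0 and 70 below, and 20 of them, or 13.7%, had an unadjusted p under 0.05, beside 16.7% of all tested genes.

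*Flcn* encodes folliculin, which with a partner, FNIP1 or FNIP2, acts on the Rag GTPases at the lysosome, where it governs whether mTORC1 phosphorylates TFEB and TFE3. *Flcn* (chr11:59791408-59810016) had 65.1, 85.1 and 78.5 CPM in WT replicates 1, 3 and 4 and 46.5, 60.8, 55.5 and 55.1 CPM in A178D replicates 1 to 4. Every A178D heart was below every WT heart. *Flcn* fell by 0.48 on the log2 scale (standard error 0.10, edgeR adjusted p = 0.0261). The call was lost without WT replicate 3 (adjusted p = 0.169), WT replicate 4 (0.116), A178D replicate 1 (0.084) or A178D replicate 3 (0.0626), and over all alternatives the adjusted p lay between 0.000913 and 0.169.

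*Fnip2* (chr3:79455974-79567796) had 29.2, 35.6 and 28.9 CPM in WT and 21.9, 18.005, 20.4 and 15.5 CPM in A178D replicates. The genotypes did not overlap. Its log2 fold change was -0.72 (standard error 0.12, edgeR adjusted p = 0.00744), and without WT replicate 3 the adjusted p was 0.0654, at the upper end of a range from 2.82e-06. *Fnip1*, the other partner, ranged from 89.4 to 112 CPM in WT and from 74.1 to 95.5 CPM in A178D hearts and was not called (adjusted p = 0.346).

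*Fuca2* (chr10:13499540-13519035), which encodes the secreted plasma fucosidase, had 209, 223 and 238 CPM in WT and 368, 332, 339 and 356 CPM in A178D replicates. All A178D hearts stood far above all WT hearts, with a log2 fold change of 0.64 (standard error 0.071, edgeR adjusted p = 0.000651). *Sort1* (chr3:108284082-108361511) encodes sortilin, a receptor that carries proteins from the Golgi to endosomes and lysosomes. It had 67.2, 65.5 and 62.6 CPM in WT and 31.0, 35.6, 48.5 and 30.5 CPM in A178D replicates. A178D replicate 3 was nearest to the WT hearts and still below them, and the log2 fold change was -0.84 (standard error 0.13, edgeR adjusted p = 0.00598). Both genes were called in all 7 fits that left out 1 heart, *Sort1* with an adjusted p of 0.0499 without WT replicate 3.

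**Figure D3:**
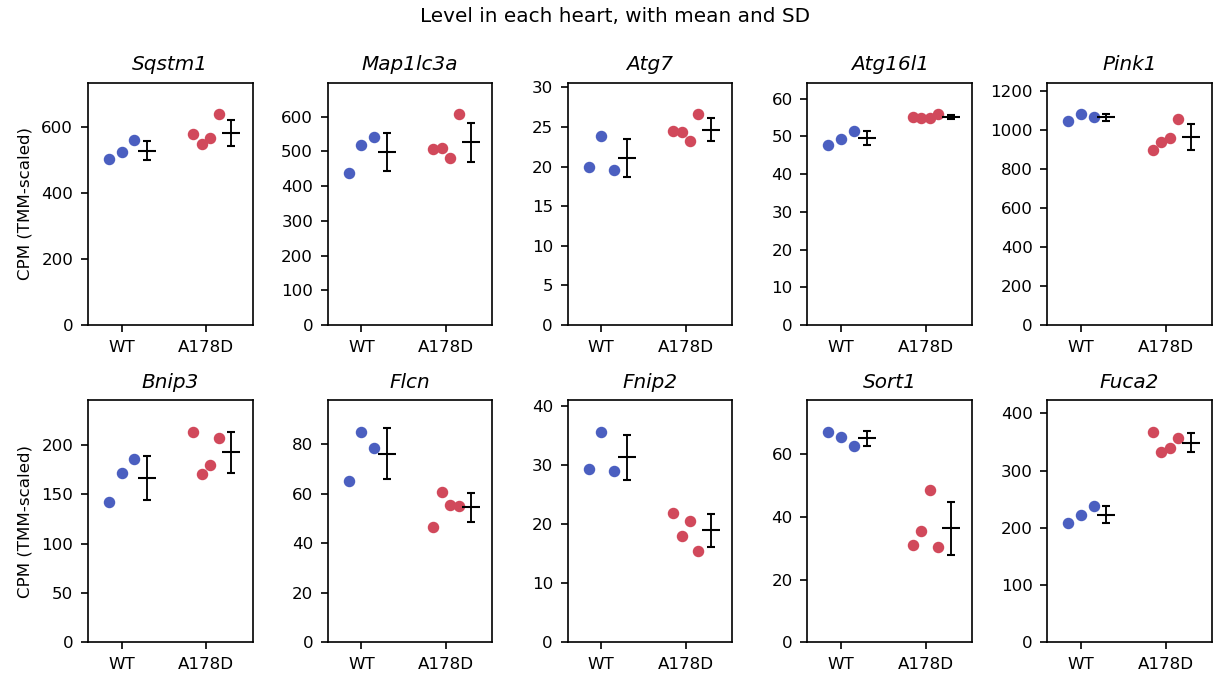
Level of 10 genes in each heart, in CPM scaled by TMM (y axis, from 0), for WT (blue, n = 3) and A178D (red, n = 4). Each point is 1 heart, and the black mark and bar are the mean and SD. *Sqstm1*, *Map1lc3a*, *Atg7*, *Pink1* and *Bnip3* overlap between genotypes, while *Atg16l1*, *Flcn*, *Fnip2*, *Sort1* and *Fuca2* do not.

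Lysosomal genes are also active in cells other than cardiomyocytes, so the markers of several cell types were followed. The 9 markers of ventricular cardiomyocytes, led by *Myh6*, summed to between 102087 and 108030 CPM in WT and between 101735 and 111713 CPM in A178D hearts. Their log2 fold changes ran from -0.20, for *Ryr2*, to 0.30, for *Mybpc3*, with 4 above 0 and 5 below. EdgeR gave an unadjusted p under 0.05 for 2, or 22.2%, beside 16.7% of all tested genes. Only *Mybpc3* was called, higher (edgeR adjusted p = 0.023), or 11.1% of the list beside 2.35% of all tested genes in either direction. Its call was lost with the replicate block (0.0574) and without WT replicate 3 (0.111), WT replicate 4 (0.12), A178D replicate 1 (0.0872) or A178D replicate 3 (0.051). The 5 markers of atrial myocytes, led by *Dkk3*, summed to 4.21 to 5.86 CPM in WT and 4.42 to 7.29 CPM in A178D hearts, *Bmp10* was listed at 0 in all hearts, and 0 of the 2 that could be tested were called, with 1 at an unadjusted p under 0.05. The 8 markers of skeletal muscle summed to 1557 to 1885 and 1803 to 2058 CPM, nearly all from *Ckm*, which the heart also expresses, and 0 of the 4 tested were called, none at an unadjusted p under 0.05.

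The 12 macrophage markers, led by *Lyz2*, summed to 344, 445 and 407 CPM in WT replicates 1, 3 and 4 and to 479, 483, 432.5 and 487 CPM in A178D replicates 1 to 4. Their median log2 fold change was 0.25, 10 of 12 lay above 0, and 1, *Lyz2*, was called higher (0.40, edgeR adjusted p = 0.0339). EdgeR gave an unadjusted p under 0.05 for 6 of the 12, or 50%, beside 16.7% of all tested genes. In 4 of the 12 every A178D heart was above every WT heart, beside 7.61% of all tested genes. The median ranged from 0.14 (without WT replicate 1) to 0.33 (without WT replicate 3) in the fits that left out 1 heart, and it was 0.11 with WT replicate 1 and A178D replicate 4 both left out. *Lyz2* was called in 2 of the 7 fits that left out 1 heart, with an adjusted p of 0.0706 without WT replicate 1, 0.0915 without WT replicate 3, 0.0786 without WT replicate 4, 0.117 without A178D replicate 1 and 0.0621 without A178D replicate 2, and it was not called with the replicate block and offsets (0.0704). DESeq2 called 3 of the 12 markers and limma-voom 1. *Lyz2* is a lysosomal enzyme of myeloid cells and was not in the member list. The macrophage cathepsin *Ctss* had 16.5, 17.4 and 16.4 CPM in WT and 21.9, 25.1, 19.2 and 19.5 CPM in A178D hearts, apart between genotypes and not called by edgeR (adjusted p = 0.102), though called by DESeq2. It was chosen after its values were seen. The part of macrophages in the levels of the cathepsins was not tested.

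The 8 fibroblast markers, led by *Dcn*, summed to 1178, 1205 and 1090.2 CPM in WT and to 1407, 1332, 1277 and 1297 CPM in A178D hearts (median 0.12, 1 called higher, *Col3a1*, edgeR adjusted p = 0.0317). EdgeR gave an unadjusted p under 0.05 for 4 of the 8, or 50%, beside 16.7% of all tested genes. In 4 every A178D heart was above every WT heart, beside 7.61% of all tested genes. DESeq2 called 2 of the 8 markers and the fit with offsets 3. *Col3a1* lost its call without WT replicate 3 (0.113), A178D replicate 1 (0.084), A178D replicate 2 (0.0672) or A178D replicate 3 (0.0712), and the median ranged from 0.060 (without A178D replicate 1) to 0.17 (without A178D replicate 2) with 1 heart left out. The 7 endothelial markers, led by *Fabp4*, summed to 1423 to 1474.5 and 1423.5 to 1580 CPM (median 0.033, 0 called and 0 at an unadjusted p under 0.05). Their median was lowest, at -0.035, with WT replicate 4 left out and highest, at 0.064, with A178D replicate 1 left out, and it was -0.037 with the offsets. Among the atrial, skeletal muscle and endothelial markers DESeq2 and limma-voom also called 0, and with WT replicate 1 and A178D replicate 4 both left out 1 endothelial gene, *Kdr*, was called higher (named after its value was seen). The 8 markers of smooth muscle and pericytes, led by *Acta2*, summed to 777, 764.5 and 708 CPM in WT and to 479, 564, 583 and 517 CPM in A178D hearts, with a median of -0.61, and 5 were called lower, or 2 without WT replicate 3, 3 without WT replicate 1, WT replicate 4, A178D replicate 1 or A178D replicate 3, and 4 without A178D replicate 2. Of these 8 smooth muscle and pericyte markers, 4 were called with the replicate block, 6 with the offsets and 7 with DESeq2. EdgeR gave an unadjusted p under 0.05 for 7 of the 8, or 87.5%, beside 16.7% of all tested genes. In 6 every A178D heart was below every WT heart, beside 8.52% of all tested genes. Whether these cell types contribute to the differences in *Sort1*, *Flcn*, *Fnip2* or *Fuca2* was not tested.

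TFEB and TFE3 bind an E-box in the promoters of many lysosomal genes, with CACGTG at its centre and preferably a T before it. RefSeq promoter windows (250 bases before to 50 after the gene start, GRCm38.p6) were matched for 35 of the 43 members by symbol. CACGTG, which reads the same on both strands, occurred in 9 of the 35, or 25.7%, in 23.7% of the 118 other pathway genes with a window, in 11.5% of the tested genes and in 7.15% of all windows. TCACGTG on either strand, which contains the first motif, occurred in 6 of the 35, or 17.1%, in 22.9% of the other pathway genes, in 6.75% of the tested genes and in 3.77% of all windows. The log2 fold changes of the 9 members with CACGTG ran from -0.11, for *Atg14*, to 0.22, for *Atg7*, with 6 above 0, and none was called. Their median was 0.13, beside -0.010 for the 26 members with a window and no CACGTG. The difference between these medians was not tested. Among *Flcn*, *Fnip2* and *Fuca2*, whose windows were matched, none holds CACGTG. A match describes letters in a window and says nothing of binding in these hearts.

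The sequences around this motif are shown for 1 site in each of the 6 members with TCACGTG, because this is the motif that TFEB and TFE3 are known to bind. Each is 30 bases on the gene's strand, 5′ to 3′, with CACGTG in capitals. They lie at chr14:47568418-47568447 (*Atg14*, minus strand), chr16:45158746-45158775 (*Atg3*), chr6:114670952-114670981 (*Atg7*), chr7:142387908-142387937 (*Ctsd*, minus strand), chr11:119267811-119267840 (*Gaa*) and chr8:13159134-13159163 (*Lamp1*), on the plus strand where not stated.
Atg14: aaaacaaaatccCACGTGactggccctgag
Atg3: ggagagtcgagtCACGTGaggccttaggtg
Atg7: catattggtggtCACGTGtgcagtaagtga
Ctsd: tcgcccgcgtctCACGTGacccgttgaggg
Gaa: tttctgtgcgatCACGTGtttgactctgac
Lamp1: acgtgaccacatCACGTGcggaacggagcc
In *Atg3* and *Ctsd* the site reads TCACGTGA, the same on both strands, a form found in 5.71% of the members with a window, 13 of 118 other pathway genes with a window, 2.05% of the tested genes and 0.974% of all windows. In *Lamp1* there are 4 CACGTG sites in its window, and *Atg3* and *Ctsd* have 2 each. The RefSeq starts used for *Atg7* and *Atg14* lie inside the spans that GENCODE gives these genes, 27999 and 2215 bases from the gene starts of that annotation, and the starts of the other 4 lie within 211 bases of theirs.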

How the data were processed

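The authors sequenced poly(A) RNA from 7 left ventricles with a stranded kit from both ends and deposited raw counts per gene. The submitters' processing notes name bcl2fastq 2.18.0.12, HISAT2 2.1.0, SAMtools 1.6, DESeq2 1.26.0 and GRCm38. The counting program and its strand setting are not given in the sources used here. A second deposited table, in which counts are divided by size factors, was not used. Odd numbers were rare in low counts (17.6 to 20.3% of those from 1 to 20), so a fragment may have been counted once per end.

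Identifiers were matched to GENCODE M21 (all but 300 of 21257 entries). Sets of entries with identical counts (442 entries in 219 sets, at least 30 counts) were reduced to 1 each, and repeated entries with fewer counts likewise, which removed 330. The genotypes were compared with edgeR 4.0.16 in R 4.3.3 (TMM, glmQLFit, glmQLFTest, at least 10 counts in at least 3 libraries, no covariate), Benjamini-Hochberg adjusted over 13894 genes, two-sided. The steps were tested on simulated data. Alternatives used DESeq2 1.42.0 (Wald test, or its size factors in edgeR), limma-voom (limma 3.58.1), other count filters, the table as deposited, halved counts, an adjusted p under 0.01, the replicate number as a block, offsets for transcript length and GC content (mgcv 1.9.3), and each library left out. Leaving out WT replicate 1 and A178D replicate 4 together was chosen after seeing the data.

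The members, the further lists and the markers were chosen with earlier results of these data known. Values per heart were given for members with an adjusted or an unadjusted p under 0.05, for *Sqstm1*, since the study measured p62, for *Map1lc3a* and *Map1lc3b*, since it measured LC3-II without naming the LC3 gene, for *Ttn*, and for called genes of the further lists. Other members were given by level and range, and *Bnip3*, *Optn*, *Tfeb* and the genes said in the text to be additions were given per heart after their values were seen. Levels per kilobase used the union of annotated exons. Each sample is a single heart, and standard errors cover counting and the spread between hearts together.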

Additional observations from a re-analysis of the deposited data

Results flagged for a closer look

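In 48 genes examined (the members, the genes named with them and *Ttn*), 1 heart stood apart from the others of its genotype. *Atg13*, a subunit of the ULK complex, was at 40.1 CPM in A178D replicate 4, while the other 3 A178D hearts lay between 44.98 and 45.5 CPM. The gap took up most of the range of the 4 values. Chance alone gives such a gap in about 1 of 20 groups, so 1 flag in 48 groups is no more than chance gives. The 3 WT hearts are too few to be examined in this way. Library A178D replicate 4 also had the strongest trend of counts with transcript length, and the part of this trend in the value of *Atg13* was not tested.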

How the results depend on the processing

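Members called in either direction numbered 0 in every alternative but 2, and *Pink1* was the gene called lower in both. With offsets for transcript length and GC content, 1 member was called lower, and with WT replicate 1 and A178D replicate 4 both left out, an alternative chosen after seeing the data, also 1. In the fits that left out 1 heart, 0 members were called.

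The counts over all genes moved more. Genes called higher and lower numbered 306 and 380 with DESeq2's Wald test, 228 and 277 with the offsets, 353 and 407 without both libraries, and 24 and 40 at an adjusted p under 0.01. Leaving out 1 heart gave 22 (without WT replicate 3) to 215 (without WT replicate 1) genes higher and 31 to 238 lower, from the same hearts. With all hearts the counts were 145 higher and 182 lower. Fewer samples thus went with lower counts in some fits and higher counts in others, and the cause was not tested.

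The members' median was 0.027 with the offsets, 0.038 with the replicate block and offsets, 0.023 without both libraries, and -0.014 to 0.032 with 1 heart left out. It stayed within 0.04 of 0 throughout, while the median of all tested genes remained between -0.0021 and 0.0061.

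Of the 43 members, 10 changed sign with the offsets, 10 with the replicate block and offsets, 10 without both libraries, 2 with the block alone, 1 with limma-voom, 1 without a filter, and between 1 and 7 with 1 heart left out, the 7 without A178D replicate 4. Most were small, but *Rb1cc1*, at -0.13, was among them. Of the genes whose log2 fold changes are given, with the offsets *Map1lc3a* was at -0.028, *Ulk1* at 0.012 and *Atg12* at 2.6e-05. With the replicate block and offsets *Map1lc3a* was at -0.027, *Rb1cc1* at 0.023, *Ulk1* at 0.037 and *Atg12* at 0.0012. With the block alone *Tfe3* was at -0.036. Without both libraries *Map1lc3a* was at -0.085, *Map1lc3b* at -0.061, *Atg12* at 0.029 and *Ambra1* at 0.024. With 1 heart left out the ranges were -0.0062 to 0.14 for *Map1lc3a*, -0.016 to 0.081 for *Map1lc3b*, -0.096 to 0.012 for *Atg12*, -0.10 to 0.068 for *Ulk1*, -0.026 to 0.23 for *Optn* and -0.029 to 0.10 for *Tfe3*. The cause was not tested. None of these values was called. Among the called genes of the further lists, *Fuca2* and *Sort1* were called in all 18 alternatives, *Fnip2* in 17 and *Flcn* in 14.

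Replicate numbers gave no sign of pairing the hearts. Hearts with the same number had correlations of their deviations across genes of 0.0031, -0.040 and -0.042. Hearts with different numbers had correlations between -0.070 and 0.066. Taken from means of only 3 and 4 hearts, these deviations cannot exclude a pairing. None of the 6 hearts whose number occurs in both genotypes correlated best with its own number. With the number as a block, 124 genes were called higher, 147 lower and 0 members, with a member median of -0.00079.

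With 3 and 4 hearts, the members' 95% intervals, before adjustment, reached 0.13 to 0.23 (log2) to each side of the estimate. Protein levels and lipidated LC3 are outside what these counts measure.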
